A study of Mus musculus with 15 samples.

Results

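The 10 mRNA described here encode the enzymes that write, copy and erase DNA methylation and 3 enzymes of repressive chromatin in mouse CD8+ T cells. They are the DNA methyltransferases Dnmt1, Dnmt3a and Dnmt3b, the maintenance cofactor Uhrf1, the dioxygenases Tet1, Tet2 and Tet3, the histone methyltransferases Ezh2 and Suv39h1, and the chromatin remodeller Hells. Members were taken by gene symbol from a fixed list of names, and all 10 were found among the 11262 mRNA of the table of naïve and activated cells and among the 11211 mRNA of the table of cytotoxic T lymphocytes (CTL). Together the tables hold 11836 gene symbols, of which 10637 are in both.

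All cells came from mice with the LCMV-P14 transgene, a TCR that recognises the glycoprotein peptide gp33-41 of lymphocytic choriomeningitis virus, so the cells share 1 antigen specificity. Naïve cells were sorted directly from lymph nodes as CD62L high, CD44 low CD8+ cells. TCR activated cells spent 24 h in culture with gp33 peptide (100 ng/ml), IL-12 (2 ng/ml) and IL-2 (20 ng/ml), and a further group had 10 µM of the PI3K p110δ inhibitor IC87114 (PI3Kdi) in the same medium; both were sorted as live CD8+ cells. Per the study's methods these mice were aged 9 to 13 weeks. Each of the 3 replicates was a pool from 3 mice that was shared out between the groups. CTL were made by 48 h of activation and 4 days of expansion in 20 ng/ml IL-2. On day 6 they were washed and either given 20 ng/ml IL-2 again or left without it for 24 h, with 3 replicates each. The age and number of mice behind the CTL, and whether they were sorted, are not given in the sources used here.

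DNA methylation at CpG sites is copied at each round of DNA replication. UHRF1 recognises the half-methylated site behind the fork and brings DNMT1 to it, and the HELLS remodeller, with its partner CDCA7, opens nucleosomal DNA for this step. DNMT3A and DNMT3B place methylation on sites that lack it, and TET proteins oxidise methylcytosine, which leads to its loss. EZH2 is the catalytic subunit of Polycomb repressive complex 2 (PRC2), which methylates histone H3 at silenced developmental and lineage genes, and SUV39H1 methylates histone H3 in heterochromatin bound by HP1 proteins. In CD8+ T cells these systems are known for silencing naïve and memory genes in effector cells.

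Among the 6 members that were higher after TCR activation, 5 carried, in at least 1 RefSeq promoter window, an 8-base word of the kind bound by E2F factors, which drive genes of S phase. The windows run from 250 bases before to 50 bases after an annotated start (build GRCm38.p6), and the 10 members have 16 of them. The 4 words TTTCCCGC, TTTCGCGC, TTTGCCGC and TTTGGCGC were searched on both strands, and no matches in the members overlapped each other. A match was found in 5 of the 16 windows, against 2.26% of all 32851 windows and 4.04% of the windows of genes in the FPKM tables. The words are rich in C and G, and the median CpG count was 7 and 20 in these 2 sets. It was 31 to 37 in the member windows with a match and 2 to 57 in those without. A part of E2F factors or of CpG content was not tested. Among genes of the FPKM tables with a window, 4.92% had a match in at least 1. Neither the sources nor the FPKM say which start was used, and the words were chosen with the expression values known. The windows with a match are printed 5′ to 3′ on the strand of the gene, with the matched word in capitals. The window of Tet1 follows as 1 of those without a match, which include that of Dnmt3b, a member that rose.
Uhrf1 (chr17:56304063-56304362, plus strand): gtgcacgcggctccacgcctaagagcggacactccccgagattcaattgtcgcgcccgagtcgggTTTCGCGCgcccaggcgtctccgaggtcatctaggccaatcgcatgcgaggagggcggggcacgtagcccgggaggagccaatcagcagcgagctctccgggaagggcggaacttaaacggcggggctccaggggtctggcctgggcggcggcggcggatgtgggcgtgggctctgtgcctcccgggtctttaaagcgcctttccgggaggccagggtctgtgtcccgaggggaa
Hells (chr19:38930740-38931039, plus strand): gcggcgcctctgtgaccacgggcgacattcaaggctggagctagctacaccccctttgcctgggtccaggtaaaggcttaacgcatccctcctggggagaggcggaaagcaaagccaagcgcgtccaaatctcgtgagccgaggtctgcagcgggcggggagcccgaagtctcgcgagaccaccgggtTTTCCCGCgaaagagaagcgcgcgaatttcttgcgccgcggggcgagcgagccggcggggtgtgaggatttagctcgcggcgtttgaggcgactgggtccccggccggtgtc
Dnmt1 (chr9:20952574-20952873, minus strand): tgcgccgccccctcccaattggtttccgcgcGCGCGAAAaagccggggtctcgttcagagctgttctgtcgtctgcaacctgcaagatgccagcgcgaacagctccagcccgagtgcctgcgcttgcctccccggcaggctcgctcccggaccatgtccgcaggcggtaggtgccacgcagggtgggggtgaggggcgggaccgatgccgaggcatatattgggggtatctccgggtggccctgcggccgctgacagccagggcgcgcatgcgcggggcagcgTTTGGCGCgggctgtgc
Ezh2 (chr6:47594981-47595280, minus strand): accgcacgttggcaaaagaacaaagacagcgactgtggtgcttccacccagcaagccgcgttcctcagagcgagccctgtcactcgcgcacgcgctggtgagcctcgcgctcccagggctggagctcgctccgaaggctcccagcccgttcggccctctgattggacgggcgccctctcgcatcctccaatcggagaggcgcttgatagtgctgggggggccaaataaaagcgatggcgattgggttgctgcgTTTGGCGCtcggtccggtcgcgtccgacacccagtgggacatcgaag
Suv39h1 (chrX:8074312-8074611, minus strand): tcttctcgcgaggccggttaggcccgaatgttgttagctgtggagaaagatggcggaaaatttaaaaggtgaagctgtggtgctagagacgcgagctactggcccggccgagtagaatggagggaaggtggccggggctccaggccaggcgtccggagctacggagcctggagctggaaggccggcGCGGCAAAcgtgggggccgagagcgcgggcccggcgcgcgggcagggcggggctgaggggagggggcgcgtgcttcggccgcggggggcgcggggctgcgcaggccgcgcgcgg
Tet1 (chr10:62887275-62887574, minus strand): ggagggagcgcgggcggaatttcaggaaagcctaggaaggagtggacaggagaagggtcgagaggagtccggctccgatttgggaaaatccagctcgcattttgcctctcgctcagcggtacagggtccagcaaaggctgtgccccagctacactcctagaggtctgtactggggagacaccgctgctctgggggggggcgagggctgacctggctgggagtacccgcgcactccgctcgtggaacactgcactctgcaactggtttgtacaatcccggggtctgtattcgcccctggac
In Hells the word began at base 189 of the window, in Suv39h1 at base 187 on the opposite strand, in Uhrf1 at base 66 and in Ezh2 at base 254. Dnmt1 had 2 matches, at base 32 on the opposite strand and at base 284. The windows of Dnmt3a, Dnmt3b, Tet1, Tet2 and Tet3 had 0 matches.

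TCR activation raised 6 of the 10 mRNA and lowered 3. The name stands for the whole treatment: peptide, IL-2, IL-12, 24 h of culture and the sort gate differed together and cannot be told apart. Uhrf1, Hells and Ezh2 rose most, Suv39h1, Dnmt3b and Dnmt1 rose 2.69- to 3.31-fold in the ratio of mean FPKM, and all 3 Tet mRNA fell. Dnmt3a was the member that did not pass the test. FPKM scale the reads of a gene to its exon length and to the library total. The call needed a limma adjusted p under 0.05 and a fold change above 2 or below 0.5, fitted on log2(FPKM + 0.1). By this rule activation changed 48.7% of all mRNA, 25.0% to higher and 23.7% to lower levels, and the count of 9 of 10 members stands beside that background. Libraries of the 2 groups did not overlap for 9 of the 10 members and for 80.7% of all mRNA.

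**Figure D1:**
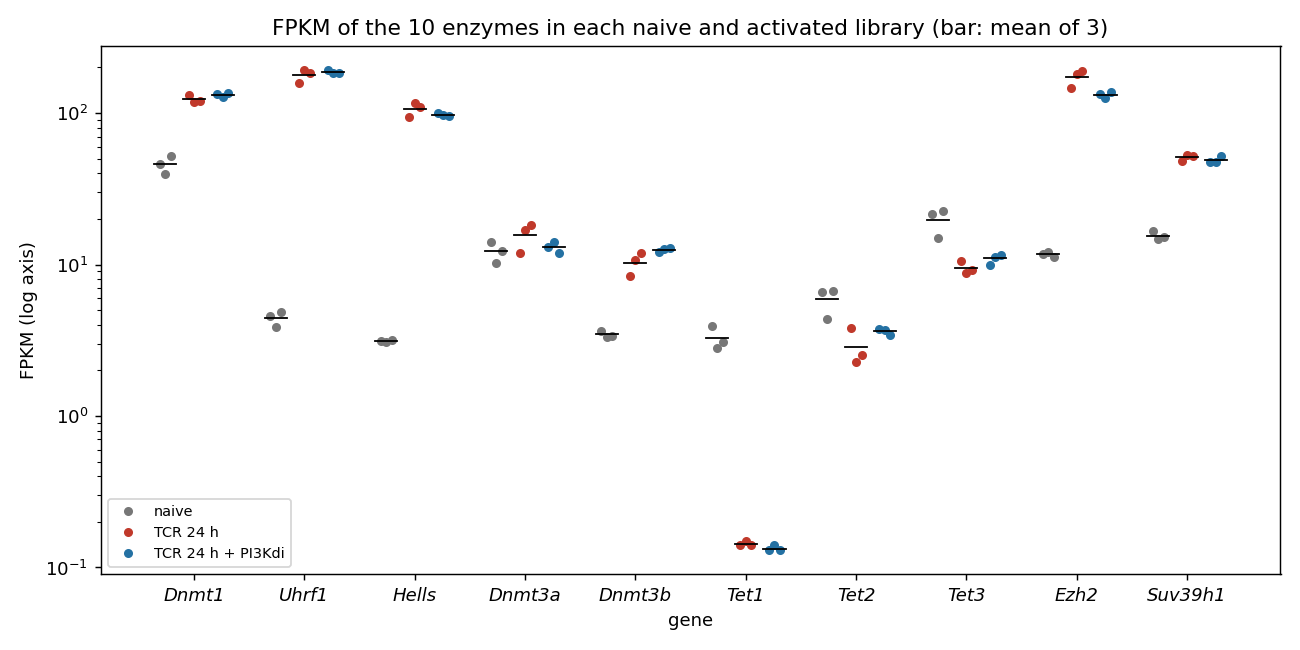
Points are the FPKM of each member in single libraries on a log axis, grouped by naïve cells and cells activated for 24 h without or with PI3Kdi, and bars are means of 3. Uhrf1, Hells and Ezh2 lie far above naïve cells in all 6 activated libraries, while Tet1 lies between 0.13 and 0.15 FPKM in them.

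The maintenance enzymes were induced to different extents. Dnmt1 (Entrez 13433, chr9:20907206-20959888), which methylates the newly made strand, was at 45.9, 39.6 and 52.3 FPKM in naïve cells and at 132, 119 and 119.5 FPKM in TCR activated cells. It was already among the more abundant mRNA of naïve cells, at the 84.7th percentile of the table, and its log2 fold change was 1.43 (SE 0.10, limma adjusted p = 1.2e-07). Uhrf1 (Entrez 18140, chr17:56303337-56323486) was at 4.58, 3.89 and 4.85 FPKM in naïve cells and at 157, 191 and 185 FPKM after activation. Per length, Uhrf1 was thus far below Dnmt1 in naïve cells (means 4.44 and 45.9 FPKM) and above it in activated cells (means 178 and 123 FPKM). Its log2 fold change of 5.29 (SE 0.10, limma adjusted p = 1.3e-11) was the largest of the 10 members.

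Hells (Entrez 15201, chr19:38930262-38970470) followed the same course. It was at 3.11, 3.09 and 3.19 FPKM in the naïve libraries and at 94.6, 117 and 109.8 FPKM in the TCR activated libraries, a log2 fold change of 5.05 (SE 0.09, limma adjusted p = 7e-12). Activated replicate 1 was the lowest of its group for Hells, as it was for Uhrf1, and both stood far above every naïve library. As a ratio of mean FPKM, the rise was 40.0-fold for Uhrf1 and 34.2-fold for Hells.

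The de novo methyltransferases parted. Dnmt3b (Entrez 13436, chr2:153649411-153687730) was at 3.62, 3.34 and 3.40 FPKM in naïve cells and at 8.39, 10.7 and 11.9 FPKM after activation, with a log2 fold change of 1.54 (SE 0.13, limma adjusted p = 6.9e-07). Dnmt3a (Entrez 13435, chr12:3801559-3914443) was at 14.1, 10.3 and 12.4 FPKM in naïve cells and at 11.9, 17.0 and 18.3 FPKM in activated cells. These groups overlapped, and the log2 fold change of 0.35 (95% interval -0.02 to 0.71, limma adjusted p = 0.075) was not called. Both genes overlap an annotated antisense gene, Dnmt3aos and Dnmt3bos, and Tet2, Tet3, Ezh2 and Suv39h1 also overlap a gene on the other strand (GENCODE M21). Whether the strand was used in counting is not stated.

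The Tet mRNA, which encode the erasers, were lower in every activated library than in any naïve library. Tet1 (Entrez 52463, chr10:62804570-62887469) was at 3.91, 2.81 and 3.07 FPKM in naïve cells and at 0.14, 0.15 and 0.14 FPKM after activation, near the lower end of the table at the 2.5th percentile. The naïve mean was 22.8-fold above the activated mean, and the fitted log2 fold change of -3.78 (SE 0.20, limma adjusted p = 1.1e-08) is smaller because of the 0.1 added to each value. With 0.01 or 1 added instead it was -4.40 or -1.89. At such levels the FPKM, given to 2 decimals, resolve little difference between activated libraries.

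Tet2 and Tet3 stood close to the 2-fold limit. Tet2 (Entrez 214133, chr3:133463677-133545136) was at 6.62, 4.38 and 6.72 FPKM in naïve cells and at 3.79, 2.27 and 2.53 FPKM after activation, a log2 fold change of -1.03 (SE 0.21, limma adjusted p = 8.9e-04). Tet3 (Entrez 194388, chr6:83362373-83457208), the most abundant of the 3, was at 21.5, 14.9 and 22.5 FPKM before and 10.5, 8.81 and 9.23 FPKM after, a log2 fold change of -1.02 (SE 0.15, limma adjusted p = 7.9e-05). Both fell under the 2-fold limit, with an adjusted p of at most 0.0058 for Tet2 and 7.2e-04 for Tet3, in 6 of 13 alternatives. These were 1 as the pseudocount, median scaling, and leaving out naïve replicate 1, naïve replicate 3, TCR replicate 2 or TCR replicate 3. Without these libraries in turn, the log2 fold change was -0.93, -0.92, -0.88 and -0.96 for Tet2 and -0.94, -0.91, -0.96 and -1.0 for Tet3. Median scaling moved the median log2 fold change of all mRNA from 0.0054 to 0.13, and the changes under it, -0.90 for Tet2 and -0.89 for Tet3, are to be read against that shift.

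The histone methyltransferases rose with the maintenance enzymes. Ezh2 (Entrez 14056, chr6:47530274-47595270) was at 11.8, 12.1 and 11.2 FPKM in naïve cells and at 145, 182 and 189.7 FPKM in TCR activated cells, a log2 fold change of 3.86 (SE 0.10, limma adjusted p = 7.9e-11). Suv39h1 (Entrez 20937, chrX:8061171-8074760) was at 16.7, 14.7 and 15.1 FPKM before and at 48.5, 52.8 and 52.3 FPKM after, with a log2 fold change of 1.72 (SE 0.08, limma adjusted p = 5.8e-09). Their naïve levels were of similar size and their activated levels were not, with Ezh2 at the 96.2th and Suv39h1 at the 83.3th percentile of the table.

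**Figure D2:**
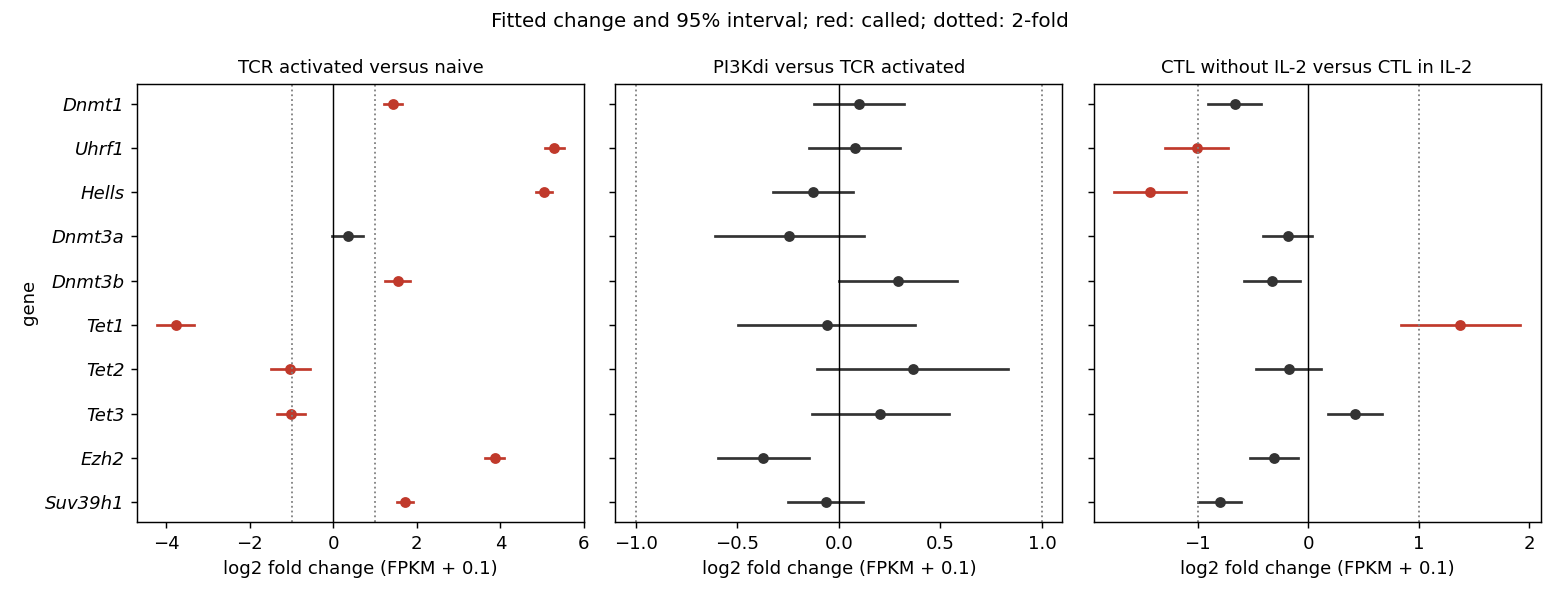
Each panel gives, for 1 comparison, the fitted log2 fold change of log2(FPKM + 0.1) of every member with its 95% interval, and the axes differ between panels. Red marks called members, 9 of 10 with TCR activation, 0 with PI3Kdi and 3 with IL-2 withdrawal, and dotted lines mark 2-fold.

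Taken as families, the ratio of Dnmt to Tet mRNA was higher after activation, with Dnmt1, which copies methylation, as most of the Dnmt sum. Summed over Dnmt1, Dnmt3a and Dnmt3b, the level was 61.6 ± 7.58 FPKM (SD, n = 3) in naïve cells and 149.5 ± 2.86 FPKM (SD, n = 3) in TCR activated cells. The Tet sum was 28.8 ± 5.84 FPKM (SD, n = 3) and 12.5 ± 1.70 FPKM (SD, n = 3). Dnmt over Tet was 1.98, 2.42 and 2.11 in the naïve libraries and 10.5, 13 and 12.6 in the activated libraries. Within the Tet family, Tet1 gave 11.5% ± 1.72 (SD, n = 3) of the sum in naïve cells and 1.16% ± 0.184 (SD, n = 3) after activation. Dnmt3a gave 19.9% ± 2.04 (SD, n = 3) of the Dnmt sum in naïve cells and 10.5% ± 2.38 (SD, n = 3) after activation, with Dnmt1 at 74.5% and 82.5%. These shares and ratios are described without a test.

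**Figure D3:**
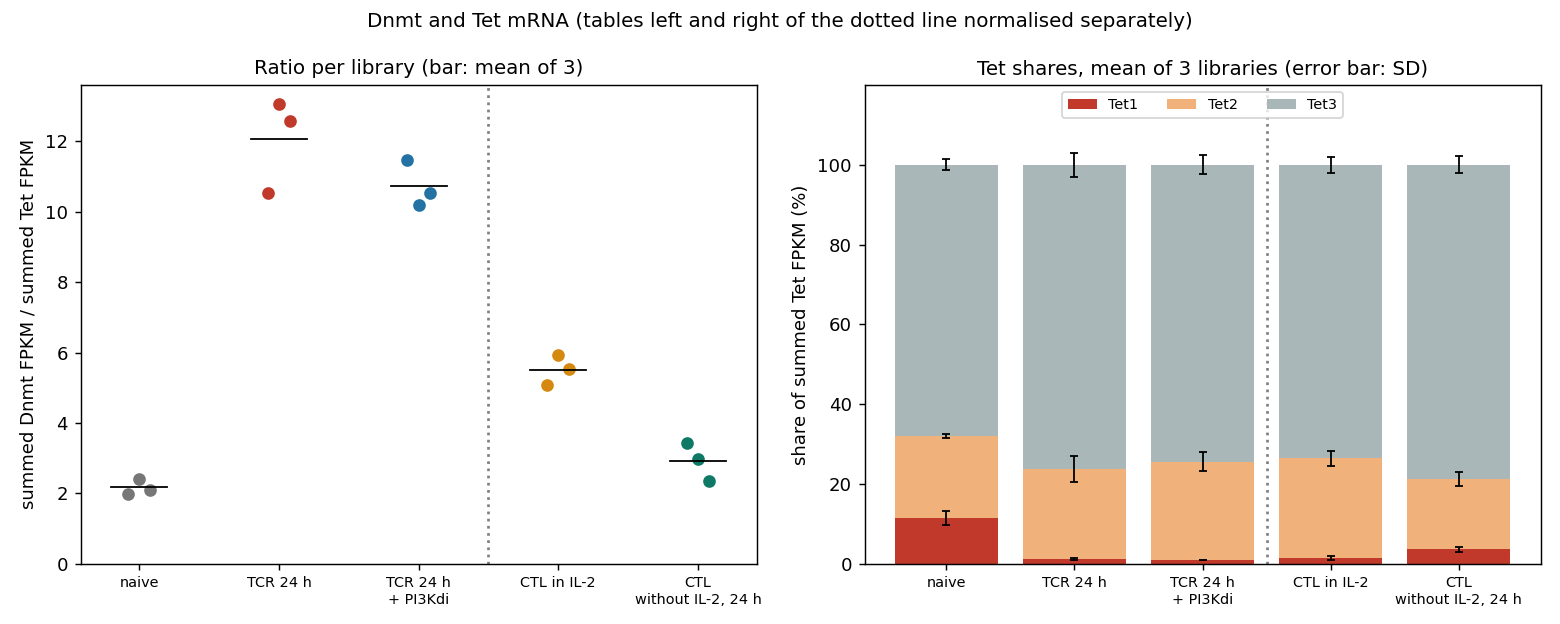
The left panel gives the ratio of summed Dnmt to summed Tet FPKM in each library with the mean of 3, and the right panel gives the mean share of each Tet mRNA with its SD. The ratio lies near 2 in naïve cells and above 10 in all 6 activated libraries, and CTL values, to the right of the dotted line, come from a table normalised separately.

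Of 78 mRNA on the lists of PRC2, PRC1, heterochromatin, assembly and reader partners, 23 rose and 21 fell with activation, or 56.4% called beside 48.7% of all mRNA. Their values are given as means of 3 libraries. Of 12 mRNA for PRC2 subunits, alternative subunits and demethylases, 5 rose and 5 fell, with a median log2 fold change of 0.45. Eed, the subunit that reads the PRC2 mark, rose from 27 to 90.7 FPKM, the accessory subunit Phf19 from 0.873 to 9.28 FPKM and the histone-binding subunit Rbbp7 from 96.2 to 226 FPKM. Ezh1, the paralogue of Ezh2, fell from 26.9 to 5.67 FPKM, so that naïve cells held more Ezh1 than Ezh2 mRNA per length and activated cells the reverse. The accessory subunits Phf1 and Jarid2 fell from 67.5 to 3.50 FPKM and from 21.2 to 8.61 FPKM. The 5 that rose became 3 with a pseudocount of 1 and without naïve replicate 3 or TCR replicate 3, and the 5 that fell became 3 with median scaling.

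Of 19 PRC1 mRNA, 3 rose and 5 fell (median log2 fold change -0.12). The chromobox readers Cbx8 and Cbx7 fell from 13.6 to 2.04 and from 51.9 to 14.3 FPKM, while the Polycomb ring finger mRNA Pcgf2 and Pcgf5 rose from 0.233 to 6.70 and from 16.2 to 55.4 FPKM. Kdm2b, which brings a PRC1 variant to CpG islands, rose from 9.03 to 21.1 FPKM. With median scaling and without TCR replicate 1, 5 rose. Of 15 heterochromatin mRNA, 3 rose and 4 fell (median log2 fold change -0.39). Suv39h2, the paralogue of Suv39h1, rose from 0.433 to 4.8 FPKM, the HP1 mRNA Cbx5 from 9.49 to 41.0 FPKM and the corepressor Trim28 from 92.9 to 248 FPKM, while the demethylases Kdm4b and Kdm3a fell from 23.9 to 6.63 FPKM and from 34.2 to 14.2 FPKM and the SETDB1 cofactor Atf7ip from 56.5 to 15.6 FPKM. Median scaling gave 5 that rose.

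Chromatin assembly mRNA followed Hells and Uhrf1, with 8 of 14 called higher and 1 lower (median 1.44 on the log2 scale). Chaf1a, a subunit of the assembly factor at the fork, rose from 0.847 to 60.6 FPKM, the Hells partner Cdca7 from 4.56 to 95.3 FPKM and the histone chaperone Asf1b from 6.08 to 63.8 FPKM. Zbtb24, a zinc finger protein that is known to drive Cdca7, fell from 16.2 to 4.63 FPKM. Among 18 readers, demethylation factors and methyl donor enzymes in the table, of 20 listed, 4 rose and 6 fell (median log2 fold change -0.59). Gadd45g and Gadd45b, stress-induced mRNA linked to demethylation, rose from 2.19 to 74.7 FPKM and from 3.78 to 75.8 ± 30.4 FPKM (SD, n = 3). Ahcy, which clears the product of every methyl transfer, rose from 14.2 to 86.8 FPKM. Gadd45a and the methylated DNA readers Zbtb4 and Zbtb38 fell, from 5.23 to 1.51, from 18.2 to 0.873 and from 7.86 to 2.14 FPKM.

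Proliferation mRNA moved with the members that rose. All 21 listed mRNA were called higher (median 4.18 on the log2 scale), and their summed level was 228 to 237 FPKM in naïve libraries and 2436 to 2739 FPKM in TCR activated libraries. Ccna2, Mki67 and Rrm2 rose most, from 0.13 to 109.9, from 0.17 to 79.9 and from 0.86 to 235 FPKM. The part of proliferation in the changes of the members was not tested. In bulk RNA, a level in fewer cells and a lower level in each cell cannot be told apart.

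Markers of other cell types were low beside those of T cells. The 5 T cell markers in the table, of 6 listed, summed to 3448 to 3905 FPKM in naïve cells and 987 to 1194 FPKM in TCR activated cells, and all 5 (Cd3e, Cd3d, Cd8a, Cd8b1 and Thy1) were called lower. The 4 B cell markers in the table, of 6 listed, summed to 20.9 to 26.3 FPKM in naïve cells, most of it Cd79b, which fell from 20.3 to 3.02 FPKM, and 4.63 to 7.12 FPKM in TCR activated cells. The 2 myeloid markers, of 6 listed, stayed under 5 FPKM in all 9 libraries and the 2 CD4 T cell markers, of 3 listed, under 1.5 FPKM, although Zbtb7b was called higher (0.09 to 0.54 FPKM). The listed markers of dendritic, NK and erythroid cells have 0 rows in this table. The part of other cells in the changes was not tested.

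Did blocking PI3K p110δ during activation alter these mRNA? Of the 10 members, 0 were called changed between cells activated with and without PI3Kdi, where 5.14% of all mRNA were called, 3.04% higher and 2.10% lower. Without the fold limit 1 member passed, Ezh2, against 17.5% of all mRNA. The largest upper limits of a rise were 1.78-fold for Tet2 and 1.5-fold for Dnmt3b, and the lowest limits of a fall were 0.655 for Dnmt3a and 0.661 for Ezh2, all as 95% intervals of the fold change. Libraries did not overlap for 2 members, Ezh2 and Dnmt3b, and for 36.7% of all mRNA. This comparison shares the TCR activated libraries with the previous one.

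Ezh2 was at 133, 125 and 139 FPKM with PI3Kdi, below each of the 3 TCR activated libraries and far above naïve cells. Its log2 fold change against TCR activated cells was -0.37 (95% interval -0.60 to -0.15, limma adjusted p = 0.029), which is under the 2-fold limit. Leaving out 1 library at a time gave values from -0.49 to -0.30. The limma adjusted p was 0.002 without TCR replicate 1 and 0.052 to 0.12 without each of the other 5 libraries, so the pass of the p threshold was lost in those. Dnmt3b was at 12, 12.7 and 12.8 FPKM with PI3Kdi, above the 3 TCR activated libraries, with a log2 fold change of 0.29 (95% interval -0.0011 to 0.58, limma adjusted p = 0.16).

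The other members overlapped between the activated groups. Uhrf1 was at 193, 184 and 184 FPKM with PI3Kdi (log2 fold change 0.08, 95% interval -0.15 to 0.30), and Hells was at 100.4, 97.4 and 95.2 FPKM (-0.13, 95% interval -0.32 to 0.07). Dnmt1 was at 134, 128 and 135 FPKM with PI3Kdi (0.10, 95% interval -0.12 to 0.32), and Suv39h1 was at 47.2, 47.7 and 52.0 FPKM (-0.07, 95% interval -0.25 to 0.12). For Dnmt3a the values were 13.1, 14.2 and 12 FPKM, which overlapped both the naïve and the TCR activated libraries. The adjusted p of these 5 members was between 0.35 and 0.65 in limma. In same-numbered pairs, Dnmt1 was higher with the inhibitor in 3 of 3, Suv39h1 was lower in 3 of 3, and Uhrf1, Hells and Dnmt3a were lower in 2 of 3. Such pair counts were not taken over all mRNA, so 3 of 3 is not read as a change.

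Tet mRNA stayed below every naïve library with PI3Kdi. Tet1 was at 0.13, 0.14 and 0.13 FPKM, Tet2 at 3.76, 3.72 and 3.41 FPKM and Tet3 at 9.99, 11.3 and 11.6 FPKM. Against TCR activated cells the log2 fold changes were -0.06 for Tet1, 0.36 for Tet2 and 0.20 for Tet3, with adjusted p between 0.28 and 0.87 in limma. In same-numbered pairs, Tet2 and Tet3 were higher with the inhibitor in 2 of 3. Tet1 was lower in 3 of 3, but only in the last decimal given, so its direction is not resolved. The ratio of Dnmt to Tet sums was 11.5, 10.2 and 10.5 with PI3Kdi, which overlaps the values without it.

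Among 121 mRNA of the 7 pathway lists, 1 was higher and 1 lower with PI3Kdi. Zbtb4 rose from 0.873 ± 0.196 to 1.84 ± 0.110 FPKM (SD, n = 3), a log2 fold change of 1.01 (limma adjusted p = 0.0031), a call that was lost with a pseudocount of 1, with median scaling and without TCR replicate 2 or 3 or PI3Kdi replicate 2. Gadd45b fell from 75.8 ± 30.4 to 24.0 ± 9.94 FPKM (SD, n = 3), a log2 fold change of -1.66 (limma adjusted p = 0.0042). No PRC2, PRC1, heterochromatin, assembly or proliferation mRNA on the lists was called, and the list medians lay between 0.0052 and 0.07 on the log2 scale, beside -0.0076 for all mRNA. The summed proliferation level was 2454 to 2679 FPKM with PI3Kdi and overlapped that without it. In the proliferation list, 1 mRNA was called lower with median scaling and without TCR replicate 1 or 3 or PI3Kdi replicate 1. Sum and median cover opposite shifts in 2 mRNA chosen after their values were seen. Ccnb1 had means of 51.7 FPKM without and 26.2 FPKM with PI3Kdi (log2 fold change -0.99, limma adjusted p = 0.0019). Mcm2 had means of 147 and 193 FPKM (0.40, limma adjusted p = 0.013). Among the markers called lower with PI3Kdi was Ms4a1 (0.733 to 0.0633 FPKM), and B cell markers summed to 3.30 to 4.58 FPKM, myeloid markers to 3.56 to 4.57 FPKM and CD4 markers to 1.36 to 1.48 FPKM. Their part was not tested.

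IL-2 withdrawal from CTL lowered Hells and Uhrf1 and raised Tet1, which is 3 of 10 members where 28.2% of all mRNA were called, 14.3% higher and 13.9% lower. Without the fold limit 8 members passed, 6 lower and 2 higher, where 71.9% of all mRNA passed. Of these, Ezh2 and Dnmt3b lost the pass in at least 1 alternative, with a limma adjusted p of up to 0.055 and 0.098. Libraries of the 2 groups did not overlap for 9 members, all but Tet2, and for 76.1% of all mRNA. The CTL table was normalised on its own, so its levels were not tested against naïve or newly activated cells.

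**Figure D4:**
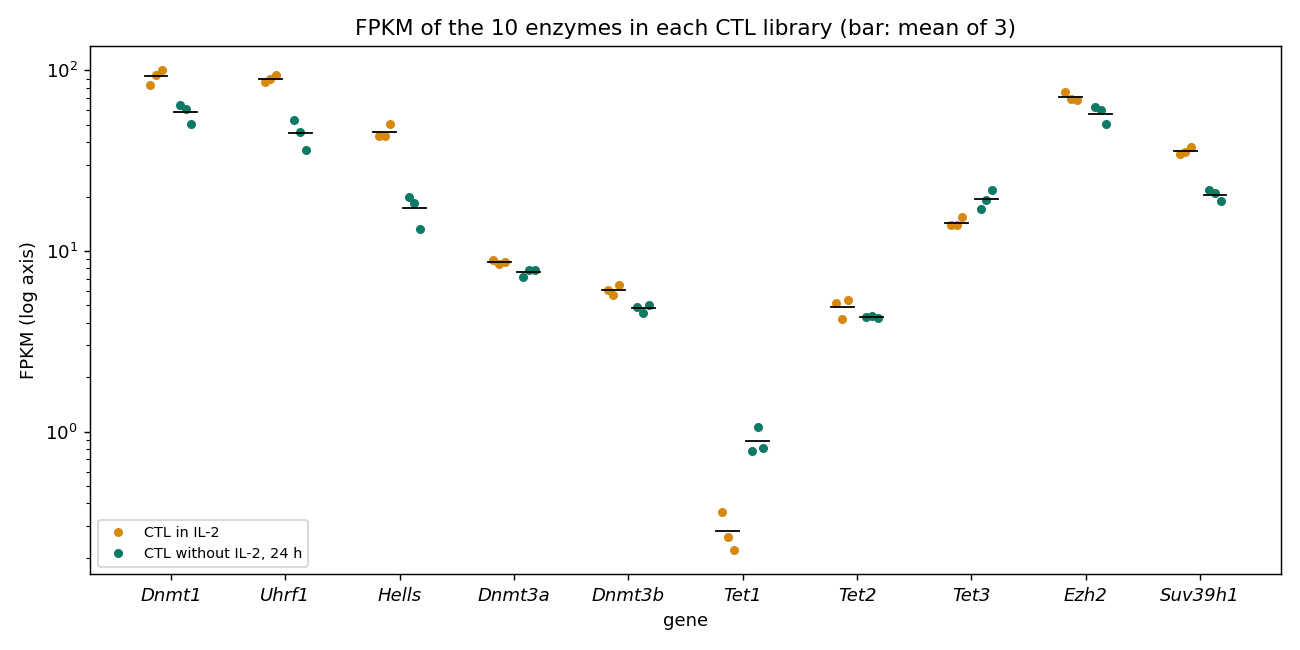
Points are the FPKM of each member in single CTL libraries on a log axis, with IL-2 kept or withdrawn for 24 h, and bars are means of 3. Hells, Uhrf1, Suv39h1 and Dnmt1 lie lower in all 3 libraries without IL-2, and Tet1 and Tet3 lie higher.

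Among the maintenance enzymes, Hells changed most. It was at 43.6, 43.6 and 50.5 FPKM in CTL kept in IL-2 and at 19.9, 18.5 and 13.2 FPKM without IL-2, a log2 fold change of -1.43 (SE 0.15, limma adjusted p = 1.9e-05). Uhrf1 was at 85.8, 89.2 and 94.3 FPKM in IL-2 and at 53.4, 45.5 and 36.5 FPKM without, a log2 fold change of -1.01 (SE 0.13, limma adjusted p = 7.2e-05) that lay on the 2-fold limit. It was under that limit with a pseudocount of 1 (-0.99), with median scaling (-0.99), and without replicate 3 of either group, at -0.97 when the library in IL-2 was left out and -0.86 when the library without IL-2 was. Dnmt1 was at 83.4, 94.5 and 100.6 FPKM in IL-2 and at 64.2, 61.0 and 50.7 FPKM without it, a log2 fold change of -0.67 (SE 0.11, limma adjusted p = 3.8e-04), past the p threshold and short of 2-fold.

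Among the erasers, Tet1 was called higher and Tet3 passed the p threshold short of 2-fold. Tet1 was at 0.36, 0.26 and 0.22 FPKM in IL-2 and at 0.78, 1.06 and 0.81 FPKM without it. Its log2 fold change was 1.38 (SE 0.24, limma adjusted p = 6.3e-04), 0.56 with a pseudocount of 1, and the ratio of mean FPKM was 3.15. Tet3 was at 13.9, 13.9 and 15.4 FPKM in IL-2 and at 17.1, 19.2 and 21.9 FPKM without, a log2 fold change of 0.43 (SE 0.11, limma adjusted p = 0.0056). Tet2 was at 5.14, 4.20 and 5.36 FPKM and at 4.29, 4.37 and 4.24 FPKM, and its groups overlapped (log2 fold change -0.18, 95% interval -0.47 to 0.12).

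Among the other methyltransferases, Suv39h1 showed the clearest difference. It was at 34.6, 35.3 and 37.5 FPKM in IL-2 and at 21.8, 20.9 and 18.9 FPKM without, a log2 fold change of -0.80 (SE 0.09, limma adjusted p = 2.5e-05). Ezh2 was at 76.4, 69.0 and 68.3 FPKM in IL-2 and at 62.5, 60.3 and 50.4 FPKM without, a log2 fold change of -0.31 (limma adjusted p = 0.017). Dnmt3b was at 6.07, 5.68 and 6.46 FPKM and at 4.87, 4.55 and 5.0 FPKM, a log2 fold change of -0.33 (limma adjusted p = 0.025). Dnmt3a, at 8.89, 8.50 and 8.66 FPKM and then 7.16, 7.87 and 7.87 FPKM, had a log2 fold change of -0.18 (95% interval -0.41 to 0.04, limma adjusted p = 0.12).

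The ratio of Dnmt to Tet sums was 5.07, 5.93 and 5.53 in CTL kept in IL-2 and 3.43, 2.98 and 2.36 without IL-2. All 3 libraries in IL-2 lay between the naïve and the newly activated cells in this ratio. Without IL-2, only replicate 3 (2.36) lay within the naïve range of 1.98 to 2.42. Replicates 1 and 2 (3.43 and 2.98) lay above it. The ratio is taken within each library, but across tables normalised separately. Tet1 gave 1.44% ± 0.404 (SD, n = 3) of the Tet sum in IL-2 and 3.61% ± 0.651 (SD, n = 3) without it. Ezh2 remained at the 88.8th percentile of the CTL table without IL-2, and Uhrf1 at the 85.2th.

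On the same partner lists, 16 of 78 mRNA were called without IL-2, or 20.5%, a smaller share than the 28.2% of all mRNA. Of 14 assembly mRNA, 3 fell and 0 rose (median log2 fold change -0.76): the histone chaperone Nasp from 49.8 to 18.1 FPKM, Cdca7 from 35.3 to 13.7 FPKM and Chaf1a from 35.5 to 16.4 FPKM. Of 12 PRC2 mRNA, Ezh1 and Phf1 rose, from 11.9 to 41.3 and from 9.28 to 25.2 FPKM, and Jarid2 fell from 29.5 to 13.3 FPKM (list median -0.28). That fall was not called without replicate 3 of the CTL in IL-2, and 2 fell without replicate 2 of the CTL in IL-2 or replicate 1 of those without it. Of 15 heterochromatin mRNA, 1 was called, Suv39h2, which fell from 3.65 to 0.767 FPKM (list median 0.0099), and without replicate 2 of the CTL in IL-2 a further 1 was called higher. Of 19 PRC1 mRNA, 3 rose and 2 fell (list median -0.03), among them Cbx7, from 7.42 to 31.5 FPKM, Pcgf1, from 9.38 to 23.5 FPKM, and Pcgf6, which fell from 9.83 to 3.90 FPKM. Of 18 readers, demethylation factors and methyl donor enzymes, 1 rose and 3 fell (list median 0.31). Zbtb4 rose from 2.74 to 8.44 FPKM, and Gadd45g fell from 172 to 7.89 FPKM, the methyl donor synthase Mat2a from 135 to 51.4 FPKM and Mbd3 from 66.3 to 27.5 FPKM.

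Of 21 proliferation mRNA, 10 were called lower without IL-2 and 0 higher (median -1.0 on the log2 scale). E2f2, chosen after its values were seen, was at 21.3 and 43.3 FPKM, at the 2-fold limit, and 1 of the list was called higher with a pseudocount of 0.01, with median scaling and without replicate 2 in IL-2 or replicate 3 without IL-2. The replication licensing factor Mcm2 fell from 115 to 37.5 FPKM, the cyclin Ccne1 from 46.4 to 14.7 FPKM and the licensing factor Cdc6 from 20.0 to 6.14 FPKM, while Mki67, chosen after its values were seen, was at 98.1 and 88.5 FPKM (log2 fold change -0.14, limma adjusted p = 0.24). The summed level was 1874, 1895 and 1999 FPKM in IL-2 and 1244, 1122 and 938 FPKM without it. Replicate 3 without IL-2, with the lowest of these sums, also had the lowest Dnmt1, Uhrf1, Hells, Ezh2, Suv39h1 and Tet2 and the highest Tet3 of its group. Its Dnmt3b (5.0 FPKM) was the highest of the group, its Dnmt3a (7.87 FPKM) equalled that of replicate 2, and its Tet1 (0.81 FPKM) lay between the others. The part of proliferation in these differences was not tested.

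Markers of other cell types differed as well between the CTL groups. Cd79b was called higher without IL-2 (4.33 to 15.7 FPKM), as were the myeloid marker Itgam (0.293 to 4.09 FPKM), the dendritic cell marker Itgax (0.31 to 4.55 FPKM) and Cd4 (0.23 to 1.40 FPKM). The other markers of those types in this table, Cd68, Klrb1c, Tyrobp and Zbtb7b, were not called, and 1 of 6 B cell, 2 of 6 myeloid, 1 of 5 dendritic, 2 of 3 NK, 2 of 3 CD4 and 0 of 3 erythroid markers have a row. The summed level of myeloid markers was 5.36 to 9.34 FPKM in IL-2 and 9.99 to 16.9 FPKM without, that of NK markers 2.19 to 3.55 and 3.69 to 5.57 FPKM, and that of CD4 markers 16.8 to 21.4 and 25.6 to 30.2 FPKM, most of it Zbtb7b. T cell markers summed to 1734 to 2061 FPKM in IL-2 and 2145 to 2282 FPKM without it, and of these Cd3d and Cd8b1 were called higher. The part of other cells in the differences of the members was not tested.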

How the data were processed

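RNA sequencing libraries of 9 naïve or newly activated CD8+ T cell samples and 6 CTL samples were taken from 2 tables. The authors deposited FPKM in both. Per their methods, mRNA libraries made with a stranded kit were aligned with STAR (2.5.2b) to mm10, counted per RefSeq gene with Subread (1.5.1), filtered for low counts, scaled by TMM factors and expressed per kilobase of exon. The same steps were assumed for CTL. Values have 2 decimals, and 1039 blank cells of the first table were read as 0. Read totals per library are not given in the sources used here, so counting error is unknown. FPKM are relative to the library total.

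Samples were grouped by title. The treatment labels of CTL replicates 2 and 3 carry the replicate number 1, against their titles, and those in IL-2 also name other interleukins. In R 4.3.3, limma 3.58.1 was fitted with an intensity trend to log2(FPKM + 0.1), 1 fit per table, two-sided, with Benjamini-Hochberg adjustment over all mRNA. The study used limma-voom on counts, which FPKM do not allow. The fits were tested on simulated data. Intervals are 95% from the moderated fit. Python 3.11.15, pandas 2.3.3, numpy 2.4.6 and matplotlib 3.10.9 were used. Positions and promoter windows are from RefSeq (GRCm38.p6, the assembly of mm10), overlapping genes from GENCODE M21.

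Replicate numbers were taken to pair naïve and activated samples, since each pool was divided between conditions. In CTL the pairing was assumed from the numbers, where every same-numbered correlation was over 0.1. Those correlations come from the same data, so they are no independent test of the CTL pairing. Deviations from group means correlated across genes at 0.275, 0.203 and 0.506 for same-numbered TCR activated and PI3Kdi libraries, at -0.141, 0.226 and -0.181 for TCR activated and naïve libraries, and at 0.123, 0.166 and 0.257 for CTL. Between libraries of other numbers the correlations were -0.453 to 0.191, -0.306 to 0.378 and -0.201 to 0.091 in the same order. For TCR activated and naïve libraries they do not show the pairing, which rests there on the study's methods. Between libraries of a group r was 0.983 to 0.995.

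Members and lists were chosen with earlier results of these data known. All members are named, and of each list up to 3 called rises and 3 called falls of largest size, of which some items are not reported here. Alternatives were another pseudocount, median scaling, a filter at a mean FPKM of 1, the replicate block, no intensity trend, each library left out, only the groups compared and other fold limits.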

Additional observations from a re-analysis of the deposited data

How the results depend on the processing

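In naïve against TCR activated cells, 5490 mRNA were called, from 5432 to 5589 with each library left out, and 9096 with no fold limit. The count of called members was 9, or 7 to 9 with a library left out, and Tet2 and Tet3 accounted for each loss. With PI3Kdi, 579 mRNA were called, 475 to 601 with each library left out, 311 with a pseudocount of 1, 1120 with a fold limit of 1.5 and 1975 with none. Of the members, 0 were called at a fold limit of 1.5, with either pseudocount and without any 1 library, and 1 (Ezh2) with no fold limit. At an unadjusted limma p under 0.05, 3544 mRNA differed. The log2 fold change of Uhrf1 with PI3Kdi was 0.08 and ranged from -0.0095, without TCR replicate 1, to 0.13 with each library left out. In CTL, 3166 mRNA were called, 3005 to 3349 with each library left out, 5657 with a fold limit of 1.5 and 8056 with none. The 3 called members became 5 and 8 with these limits, 1 with a pseudocount of 1, and 2 to 3 with each library left out. With only mRNA of a mean FPKM of at least 1, Tet1 had no CTL value. The replicate block changed no call of a member, with 9, 0 and 3 called under it and 5495, 591 and 3168 mRNA in all. With the pairing as a block, adjusted p was 0.038 for Ezh2 with PI3Kdi, and it was 0.059 without the intensity trend and 0.058 with only the groups compared. The counts of the pathway lists were recomputed under these settings after seeing the data. Depth per library limits what can be said of Tet1 in activated cells, whose level was at the 2.5th percentile.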

Other observations

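HDAC corepressor mRNA encode deacetylases and the complexes they work in. Of 22 in the table, of 24 listed, 2 rose and 7 fell with TCR activation, where 25.0% of all mRNA rose and 23.7% fell. The median log2 fold change was -0.36 beside 0.0054 for all mRNA. The NuRD remodeller Chd3 fell from 134 ± 11.9 to 21.2 ± 0.310 FPKM (SD, n = 3), the NuRD subunit Mta3 from 59.5 to 13.4 FPKM and the class II deacetylase Hdac5 from 26.5 to 7.14 FPKM. Hdac2 rose from 50.4 to 119.5 FPKM and Hdac6 from 4.06 to 9.65 FPKM. With PI3Kdi, 0 of the 22 were called by limma, beside 5.14% of all mRNA. Without IL-2, 3 of 23 rose and 1 fell, where 14.3% of all mRNA rose and 13.9% fell. Chd3 rose from 17.9 to 62.9 FPKM, Hdac5 from 8.10 to 21.7 FPKM and Hdac11 from 0.227 to 1.49 FPKM, and Hdac2 fell from 56.3 to 27.3 FPKM, a call that was lost without replicate 3 of the CTL without IL-2. In CTL without IL-2, the H3 methyltransferase Ehmt2, chosen after its values were seen, was at 80.8 ± 4.30 FPKM (SD, n = 3) against 42.1 ± 4.55 in IL-2, a log2 fold change of 0.94 (adjusted p = 1.5e-05, limma) that was under 2-fold with all libraries. Without replicate 2 of the CTL in IL-2, 1 mRNA of the heterochromatin list, which holds Ehmt2, was called higher.

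Paralogues of the members are given beside them. Ezh2 rose and Ezh1 fell with TCR activation, and without IL-2 Ezh1 rose 3.45-fold while Ezh2 had a log2 fold change of -0.31. Suv39h1 and Suv39h2 both rose with activation and both had lower values without IL-2. Uhrf2, the paralogue of Uhrf1, had means of 24.8 FPKM before and 17.1 FPKM after TCR activation, and of 19.7 FPKM in CTL with IL-2 and 31.0 FPKM without it, with log2 fold changes of -0.54 and 0.65. These pairs were singled out after their values were seen, and no difference within a pair was tested.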
